A study of Mus musculus with 16 samples.

Results

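In hematopoietic stem cells (HSCs) of 20-month mice, 720 H3K4me3 peaks lay away from protein-coding promoters and overlapped no listed peak of 10-week mice. They were selected on measured values, as peaks of the pooled 20-month H3K4me3 list on chromosomes 1 to 19 that met 2 conditions. Each lay more than 1 kb from every protein-coding start site of the basic GENCODE M21 annotation (mm10), and none shared a base with a peak of the pooled 10-week list. The 720 members made up part of the 6724 peaks in the 20-month list, of which 6686 lay on chromosomes 1 to 19. On these chromosomes 1255 peaks of the 20-month list were distal, that is, more than 1 kb from a protein-coding start, and the other 535 of them overlapped a 10-week peak.

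The study profiled H3K4me3, H3K27me3 and H2AK119ub1 by chromatin immunoprecipitation and sequencing (ChIP-seq) in HSCs of C57BL/6 mice aged 10 weeks (young) or 20 months (aged), with no treatment or engineered allele in these groups. HSCs were sorted as CD150+ CD34- CD48- Flt3- cells that were also c-kit+, Sca-1+, IL-7Rα- and without lineage markers (Lin-). There were 16 libraries in 8 groups by the labels, a pair per mark and age and a pair of inputs per age. The 6 peak lists used here are pooled, 1 for each mark and age, so the spread between replicates is unknown and differences between the ages could not be tested. For the study's expression profiles, bone marrow of several mice was combined before sorting, and the number of mice behind each ChIP library was not given in the sources used here. The lists hold no expression values, and the sorted cell type was therefore not checked by its surface markers.

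H3K4me3 is trimethylation of lysine 4 on histone H3. It is laid down by SET1 and MLL complexes, which are recruited to CpG-rich DNA and to sites where RNA polymerase II starts transcription, and it is the classical mark of active promoters. Away from protein-coding promoters it can mark starts of noncoding RNA genes, tRNA genes, promoters missing from an annotation, and strongly active enhancers. H3K27me3 and H2AK119ub1 are deposited by Polycomb repressive complexes, and H3K4me3 together with H3K27me3 at one promoter is called bivalent.

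The sequences below are 300 bases of GRCm38.p6 (mm10), plus strand, centred on the peak summit. One is shown for the highest-ranked member of each location class described further on, so that base composition and motif letters can be read beside the values. Ranks follow the −log10 q-value. Capitals mark matches, on either strand, to any of the 9 motifs defined with the motif counts.
Intergenic, near Aurkb, chr11:69037125-69037424: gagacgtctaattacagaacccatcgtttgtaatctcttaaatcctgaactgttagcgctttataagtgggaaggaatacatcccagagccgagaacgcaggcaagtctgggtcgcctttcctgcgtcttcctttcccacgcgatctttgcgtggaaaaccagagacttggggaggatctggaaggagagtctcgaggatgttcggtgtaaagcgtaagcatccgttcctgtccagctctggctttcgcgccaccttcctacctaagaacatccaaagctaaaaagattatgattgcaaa
Protein-coding intron, near Mab21l1, chr3:55787593-55787892: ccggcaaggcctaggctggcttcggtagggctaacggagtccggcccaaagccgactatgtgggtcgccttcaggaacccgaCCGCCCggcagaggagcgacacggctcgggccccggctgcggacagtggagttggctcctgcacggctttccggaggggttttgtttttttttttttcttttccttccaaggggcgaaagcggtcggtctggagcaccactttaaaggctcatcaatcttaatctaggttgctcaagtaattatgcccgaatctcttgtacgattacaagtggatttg
Protein-coding exon, near Shkbp1, chr7:27367787-27368086: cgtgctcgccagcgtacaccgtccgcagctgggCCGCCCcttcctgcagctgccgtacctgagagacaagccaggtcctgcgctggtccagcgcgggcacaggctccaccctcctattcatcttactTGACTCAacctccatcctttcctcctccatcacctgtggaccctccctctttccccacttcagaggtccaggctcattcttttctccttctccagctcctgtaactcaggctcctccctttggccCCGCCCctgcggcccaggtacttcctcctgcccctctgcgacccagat
Noncoding start, B930059L03Rik, chr12:110591020-110591319: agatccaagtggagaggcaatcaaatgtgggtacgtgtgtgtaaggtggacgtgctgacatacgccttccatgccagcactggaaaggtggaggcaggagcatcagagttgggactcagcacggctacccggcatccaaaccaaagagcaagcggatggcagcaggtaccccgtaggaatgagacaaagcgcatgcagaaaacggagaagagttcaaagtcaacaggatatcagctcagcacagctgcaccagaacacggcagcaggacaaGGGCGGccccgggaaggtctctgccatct
Noncoding intron, near Gm48668, chr12:20233145-20233444: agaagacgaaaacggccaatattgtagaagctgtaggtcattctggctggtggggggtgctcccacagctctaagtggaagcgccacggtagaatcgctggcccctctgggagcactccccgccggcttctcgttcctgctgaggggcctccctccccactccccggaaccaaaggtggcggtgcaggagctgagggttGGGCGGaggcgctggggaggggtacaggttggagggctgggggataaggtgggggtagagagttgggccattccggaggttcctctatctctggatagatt
Noncoding exon, near Gm47077 and Pts, chr9:50533528-50533827: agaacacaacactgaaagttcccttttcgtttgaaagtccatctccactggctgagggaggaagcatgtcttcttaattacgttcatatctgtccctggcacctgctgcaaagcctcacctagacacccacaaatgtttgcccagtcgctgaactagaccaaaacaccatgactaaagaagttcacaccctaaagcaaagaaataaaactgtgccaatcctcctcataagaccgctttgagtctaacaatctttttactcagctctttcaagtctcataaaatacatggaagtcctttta
In these 6 windows 4 held a match, 1 of them with 3 matches, and all but 1 of the matches were to the GC-rich SP/KLF motif. The windows near Aurkb and Mab21l1 held 16 and 21 CpG dinucleotides, whereas the window near Pts held 4. The Aurkb window had no motif match in spite of its CpG content.

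The members were weakly enriched, as was the 20-month list as a whole. Their fold enrichment over background ranged from 1.67 to 6.85 with a median of 3.98 (95% interval 3.98 to 4.11, over peaks), and the median over all 6686 peaks was 4.20. The −log10 q-value, where q is the p-value adjusted for multiple testing, ranged from 1.54 to 11 with a median of 3.85. The number of reads at the summit, recovered from the fold and the p-value, ranged from 14 to 89 with a median of 18, over a background whose lowest and median level was 3.52 reads. The members were 200 to 833 bp wide with a median of 247 bp. Most members thus rested on fewer than 20 reads in a pool of libraries. At the lowest background, 16, 17 and 18 reads gave 3.76, 3.98 and 4.20-fold. Fold therefore moved in steps, and equal medians between groups of members do not show equal enrichment. Whether 10-week HSCs held a weaker, unlisted signal at the same places was not tested. All intervals given here cover counting over peaks only, since replicates cannot be compared.

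The absence of a 10-week overlap was part of the selection. Among all 20-month peaks on chromosomes 1 to 19, 46.8% had no 10-week overlap, and among the distal peaks 57.4% had none. The 10-week list was the longer one, with 11279 peaks on these chromosomes, and its lowest background was 3.70 reads. The members nearest to the 1 kb limit lay 1001 bp from a start of Pdzd8 (chr19:59344521-59344779, 5.08-fold) and 1003 bp from a start of Magi2 (chr5:19228058-19228348, 3.13-fold). Just inside the limit, peaks without a 10-week overlap lay 999 bp from Tspan5 (chr3:138743194-138743462, 5.75-fold) and 998 bp from Ptger3 (chr3:157567898-157568164, 4.64-fold).

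Many members sat next to 10-week H3K4me3 even though they did not overlap it. A 10-week peak lay within 1 kb of 269 of the 720 members (37.4%, 95% Wilson interval 33.9 to 41.0), and 451 had none that close. Against the same 10-week list, the share was higher, 43.9% (41.9 to 45.9), for 2409 non-overlapping 20-month peaks within 1 kb of a protein-coding start. The corresponding share was 23.9% (22.0 to 25.9) for the 1835 distal 10-week peaks without a 20-month overlap, measured against the shorter list. The gap to the nearest 10-week peak had a median of 5187 bp and a highest value of 1463345 bp. At 135 members (18.8%) the nearest 10-week peak was more than 100 kb away.

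The distance to the nearest protein-coding start had a median of 5517 bp (4372 to 7179) and reached 799281 bp. Of the members, 221 lay between 1 and 2 kb from the start, 195 between 2 and 10 kb, 236 between 10 and 100 kb, and 68 beyond 100 kb. Members close to a start were more often close to a 10-week peak, with 52.9% of those at 1 to 2 kb and 20.6% of those beyond 100 kb within 1 kb of one. Between 1 and 2 kb, 176 members lay downstream of the start, on the side of the gene body, and 45 upstream. Between 10 and 100 kb the sides were closer, with 111 downstream and 125 upstream. The median fold enrichment was 3.98 in each of the 4 distance classes.

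**Figure D1:**
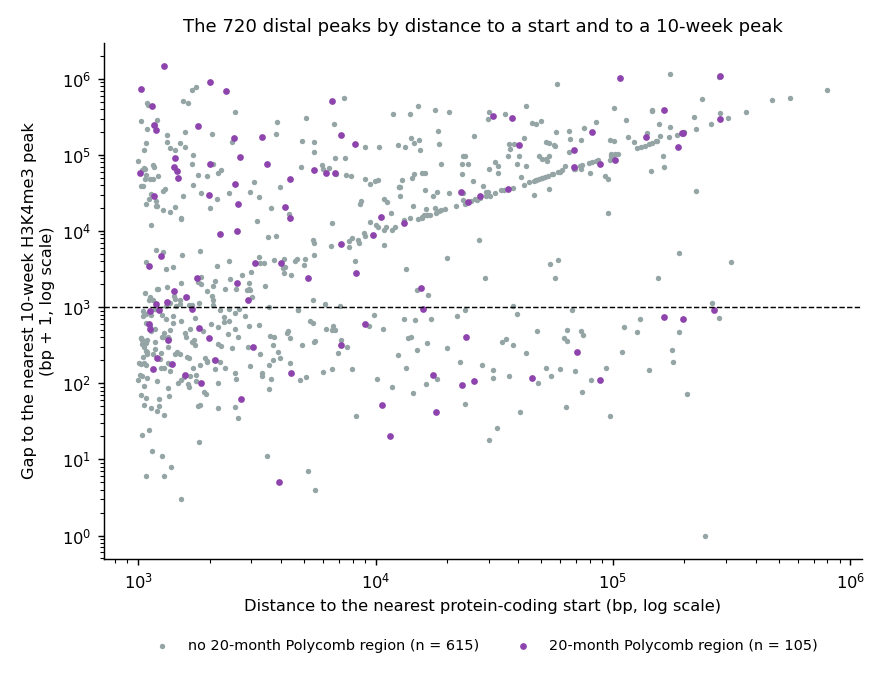
Each point is 1 of the 720 members, by its distance to the nearest protein-coding start (x axis, bp, log scale) and its gap to the nearest 10-week H3K4me3 peak (y axis, bp plus 1, log scale). Purple points are the 105 members that overlap a 20-month H3K27me3 or H2AK119ub1 region, and the dashed line marks a gap of 1 kb, below which 269 members lie.

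A wider annotation moved some members to promoters. With all transcripts of protein-coding genes in GENCODE, 141 members (19.6%, 16.8 to 22.6) lay within 1 kb of a start, and 128 lay within 1 kb of a RefSeq mRNA start. A total of 417 members (57.9%) had none of the searched starts within 1 kb. The search covered GENCODE protein-coding genes, noncoding genes of the basic set, RefSeq mRNAs and tRNA genes. Noncoding transcripts outside the basic set and RefSeq noncoding RNAs other than tRNAs were not searched.

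Protein-coding introns were the commonest location. Each member was placed in the first class that applied, in the order noncoding gene start within 1 kb, protein-coding exon, noncoding exon, protein-coding intron, noncoding intron and intergenic. By this order 314 members (43.6%, 40.0 to 47.3) were in protein-coding introns and 180 (25.0%, 22.0 to 28.3) were intergenic. A further 126 (17.5%, 14.9 to 20.4) were at noncoding starts and 64 (8.89%, 7.02 to 11.2) over protein-coding exons, while 26 were in noncoding introns and 10 over noncoding exons. Exons and introns of any gene counted, whereas a member was named by the nearest protein-coding start, which can belong to another gene. Distal 10-week peaks without a 20-month overlap had nearly the same make-up, with 44.0% in protein-coding introns and 25.6% intergenic. Distal 20-month peaks that overlapped a 10-week peak were less often in protein-coding introns (35.0%, 31.0 to 39.1), an interval that did not meet that of the members. No test of these differences was possible without replicate lists.

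**Figure D2:**
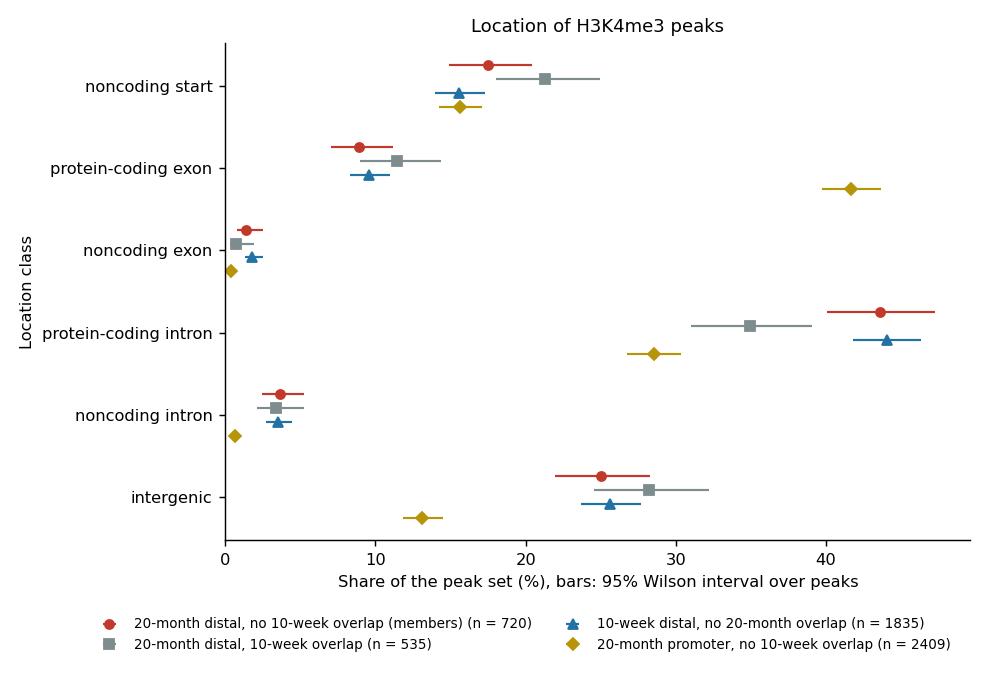
Share of each peak set (x axis, %) in the 6 location classes (y axis), with 95% Wilson intervals as bars. Members and 10-week distal peaks have overlapping intervals in every class, and the 20-month promoter peaks differ most in the share over protein-coding exons (41.7% against 8.89%).

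Noncoding starts were a mixed group. Of the 126 members there, 44 were nearest to a lincRNA gene, 22 to an antisense gene, 18 to a processed transcript, 16 to a gene of the provisional class TEC and 10 to a microRNA gene, and 24 covered the start itself. Their fold enrichment ran from 1.67 to 5.97 with a median of 3.98, the same as for all members. The share at a noncoding start was 15.7% among all 20-month peaks and 21.3% (18 to 25) among distal peaks shared with 10-week HSCs, and the members' interval met both.

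Ranked by −log10 q-value, as throughout, the highest of these members was at chr12:110590998-110591272, 486 bp from a start of the lincRNA gene B930059L03Rik. It reached 5.84-fold with 27 reads and lay 10180 bp upstream of Dync1h1, the heavy chain of cytoplasmic dynein. A 10-week peak was only 114 bp away. Below it came the member over the start of the pseudogene B330016D10Rik (chr4:141546172-141546438, 5.97-fold, 26 reads), which lies 7575 bp upstream of Spen, a transcriptional corepressor that binds Xist RNA, and 298 bp from a 10-week peak. The next covered the start of Gm42690 (chr5:100429655-100430137, 5.75-fold, 25 reads), 13421 bp upstream of Sec31a, a coat protein of vesicles that leave the endoplasmic reticulum, and 157 bp from a 10-week peak. All 3 thus adjoined H3K4me3 that was listed at 10 weeks.

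Annotated microRNA starts included several with known roles, and the fold enrichment of these 10 members ran between 3.13 and 4.20. The starts are those of the annotated genes, and where their transcription begins was not examined. A member lay 350 bp from Mir21a (chr11:86584508-86584721, 3.98-fold), a microRNA induced in many stressed and transformed cells. Another lay 952 bp from Mir196b in the HoxA cluster (chr6:52231117-52231316, 4.20-fold), 112 bp from a 10-week peak. Mir148a, Mir149 and Mir9-2 had a member 592, 90 and 775 bp away. A pair of members lay at Mir1932, upstream of Rnf213, with 1 of them over the annotated start. These peaks were chosen for mention after their values were seen.

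Genes for tRNA, which RNA polymerase III transcribes, were taken from RefSeq. They lay within 1 kb of 22 members (3.06%, 2.03 to 4.58), at a median distance of 199.5 bp, and 13 of these were classed as intergenic. The first-ranked member belonged to them. It lay at chr11:69037185-69037443, 34 bp from the serine tRNA gene n-TSaga4, with 30 reads over a background of 3.52, and 3992 bp from the nearest 10-week peak. A second member in the same stretch (chr11:69039935) was 193 bp from the proline tRNA gene n-TPcgg3. The members at 95 and 402 bp from the leucine tRNA gene n-TLtag1 on chromosome 7 formed another pair, near Eef2k, the kinase of translation elongation factor 2. The share near a tRNA gene was higher among distal peaks present at both ages (7.29%, 5.38 to 9.81), was 2.72% (2.07 to 3.57) in distal 10-week peaks, and was 0.208% in 20-month promoter peaks without a 10-week overlap.

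Intronic members held the next ranks. The member at chr3:55787498-55787883, 4988 bp downstream of a start of Mab21l1, a gene of eye and skeletal development, reached 6.41-fold with 28 reads, had a ratio of observed to expected CpG (CpG ratio) of 0.899 and was 3610 bp from a 10-week peak. The member at chr19:8821016-8821397 had the same fold and reads and lay 1006 bp downstream of a start of Hnrnpul2, just beyond the 1 kb limit. It was 183 bp from a 10-week peak. The next intronic member was assigned to Tcf4, a basic helix-loop-helix factor, with 5.97-fold and 26 reads at 21835 bp upstream of the nearest start.

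Over protein-coding exons, the highest members were assigned to Shkbp1 (chr7:27367788-27368038, 6.19-fold, 27 reads), Tppp3 (chr8:105455149-105455412, 5.53-fold, 24 reads) and Ppp1r15a (chr7:45521749-45521978, 5.31-fold, 23 reads). Ppp1r15a encodes GADD34, which restarts translation after stress, and the member lay 4168 bp downstream of its start with a CpG ratio of 1.16. The Tppp3 member was 128109 bp from any 10-week peak. The 3 thus lay 4168 to 13250 bp from the start of the gene they were assigned to. The Shkbp1 member lay 11769 bp upstream of that start, so its exon belongs to another gene. Which gene holds each exon was not recorded.

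Among intergenic members, those after the first were at chr10:37397387-37397669 (6.19-fold, 27 reads), 258467 bp from the start of Marcks, a substrate of protein kinase C, and at chr11:45926762-45926976 (5.63-fold, 26 reads), 17959 bp from Lsm11, a component of the machinery for histone mRNA processing. Neither had a 10-week peak nearby, the gaps being 257175 and 17014 bp. In noncoding introns the highest were near Gm48668 (chr12:20233218-20233423, 5.42-fold), Rgma (chr7:73372738-73372974, 5.31-fold) and Zbtb18 (chr1:177441058-177441357, 4.86-fold). Over noncoding exons they were near Pts (chr9:50533555-50533775, 5.31-fold), Zfp503 (chr14:21995133-21995510, 4.64-fold) and Adm (chr7:110626176-110626466, 4.42-fold). In both noncoding classes the highest members had 19 to 25 reads.

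Base composition of the members was closer to that of other distal peaks than to promoter peaks. The median GC share was 53.3% (52.5 to 53.9), against 59.1% (58.7 to 59.5) in the 2409 promoter peaks of 20-month HSCs without a 10-week overlap, 51.7% (50.6 to 52.5) in distal peaks shared by both ages and 50.6% (49.9 to 51.2) in distal 10-week peaks. The CpG ratio, observed over expected from the bases, had a median of 0.472 (0.453 to 0.492) in members, 0.498 in shared distal peaks, 0.455 in distal 10-week peaks and 0.648 (0.637 to 0.661) in the promoter peaks. The members' GC interval lay above that of distal 10-week peaks and overlapped that of shared distal peaks at its edge, whereas their CpG interval overlapped those of both.

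CpG-rich windows were defined as 300 bp around the summit with a GC share above 50% and a CpG ratio above 0.6. They made up 171 members (23.8%, 20.8 to 27), 21.5% of shared distal peaks, 19.1% (17.3 to 20.9) of distal 10-week peaks and 53.1% of the promoter peaks. Within the members, 34.1% (26.4 to 42.8) of those at noncoding starts, 34.4% (23.9 to 46.6) of those over protein-coding exons and 17.8% (14 to 22.4) of those in protein-coding introns were CpG-rich. Of the 22 members near a tRNA gene 13 were CpG-rich, and their median CpG ratio was 0.796. Of the 417 members with none of the searched starts within 1 kb, 16.8% (13.5 to 20.7) were CpG-rich.

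Repeats were less frequent under the members than in the genome and more frequent than under 20-month peaks at large. They were not more frequent than under other distal peaks. The median share of bases that the genome file marks as repeats, by lower case, was 8.06% (7.10 to 9.21) in members and 5% (4.58 to 5.43) in all 20-month peaks, and 33.5% of the bases of chromosomes 1 to 19 carry this mark. In shared distal peaks the median was 9.08% (8.05 to 10.2), and in distal 10-week peaks it was 9.27% (8.72 to 9.82). Both intervals overlapped that of the members. The genome value is a share of bases, whereas the others are medians over peaks. No repeat base was found in 260 members (36.1%, 32.7 to 39.7), against 44.6% of all 20-month peaks and 50.2% of the promoter peaks without a 10-week overlap. The share was 30.3% in shared distal peaks and 31.0% in distal 10-week peaks. More than 50% of the bases were repeat in 10 members.

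**Figure D3:**
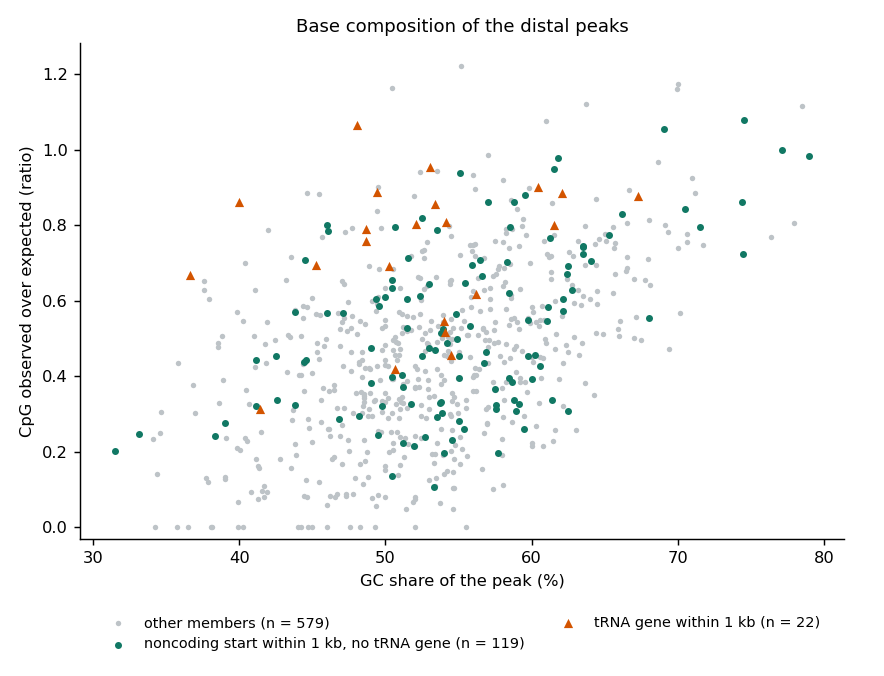
Each point is 1 member, by GC share (x axis, %) and CpG ratio, observed over expected (y axis). The 22 members with a tRNA gene within 1 kb (orange triangles, median ratio 0.796) lie mostly above the median of all members (0.472), while those at other noncoding starts (green) spread over the whole range.

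Motif letters were counted in 300 bp around each summit, as exact matches on both strands. For SP and KLF factors the letters were GGGCGG, and for GATA factors they were AGATAA. TTCNNNGAA stood for STAT factors, and AGGGGGC for the core of the CTCF motif. AP-1 was searched as TGANTCA, ETS factors as CCGGAAG and RUNX factors as TGTGGTT. ATF/CRE was searched as TGACGTCA, and NRF1 as GCGCATGCG. None of these strings contains another. A match is a description of the letters and not a binding site.

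SP/KLF letters were found in 183 members (25.4%, 22.4 to 28.7), between the 2.94% of all 300 bp tiles of chromosomes 1 to 19 and the 36.0% of 31365 RefSeq promoters of the same length. ETS letters were found in 4.44% (3.17 to 6.21) of members and 0.867% of tiles, and CTCF letters in 8.33% (6.53 to 10.6) and 2.38%. The AT-rich GATA letters were rarer in members (11.4%, 9.27 to 13.9) than in tiles (19.1%), as were RUNX letters (4.31% and 7.02%) and AP-1 letters (5.69% and 8.88%). STAT letters were about as common in members (9.44%, 7.52 to 11.8) as in tiles (11%). ATF/CRE letters were found in 6 members and NRF1 letters in 1.

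Against all 6686 peaks of the 20-month list, several of these directions turned. GATA letters were found in 7.66% of all peaks and AP-1 letters in 4.32%, both below the members' shares, and STAT letters in 7.24%. SP/KLF letters (35.9%) and ETS letters (6.78%) were found in a larger share of all peaks than of members. The members' intervals for AP-1, STAT, RUNX (3.95% of all peaks), CTCF (8.75%), ATF/CRE and NRF1 letters overlapped those of all peaks. For ETS letters the intervals met at the edge, with 3.17 to 6.21 in members and 6.20 to 7.40 in all peaks.

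The motif shares moved with CpG content. SP/KLF letters were found in 45.0% (37.8 to 52.5) of CpG-rich members and 19.3% (16.2 to 22.8) of the others, and GATA letters in 4.68% (2.39 to 8.96) and 13.5% (10.9 to 16.6). The 2 distal comparison sets gave 22.6% and 20.9% for SP/KLF and 11.2% and 12.9% for GATA. The part of base composition in the motif shares was not tested.

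**Figure D4:**
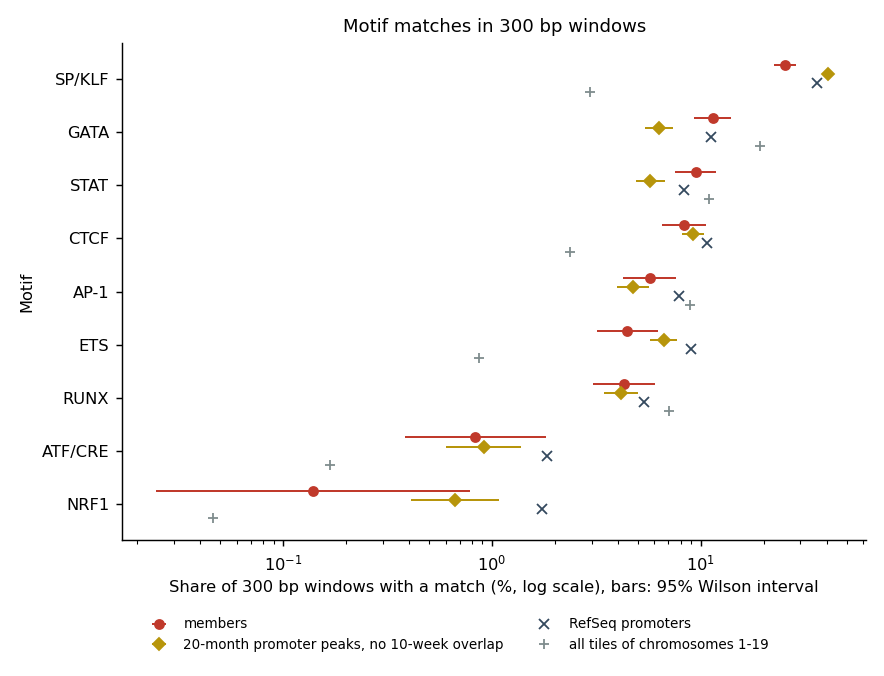
Share of 300 bp windows with a match (x axis, %, log scale) for 9 motifs (y axis), in members and 20-month promoter peaks without a 10-week overlap (with 95% Wilson intervals), RefSeq promoters and all tiles of chromosomes 1 to 19. The members lie between the tiles (2.94%) and the promoters (36.0%) for SP/KLF letters and below the tiles (19.1%) for GATA letters.

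Polycomb marks overlapped the members more often than 20-month peaks at large. Listed H3K27me3 regions of 20-month HSCs overlapped 56 members (7.78%, 6.04 to 9.97), against 2.5% of all 20-month H3K4me3 peaks. For H3K27me3 of 10-week HSCs the numbers were 108 members (15%, 12.6 to 17.8) and 5.76% of all peaks. H2AK119ub1 of 20-month HSCs overlapped 85 members (11.8%, 9.65 to 14.4) against 5.92%, and that of 10-week HSCs overlapped 4 members (0.556%, 0.216 to 1.42) against 0.165%. All 56 members in a 20-month H3K27me3 region also overlapped a 10-week one.

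Other distal peaks had shares in a similar range. H3K27me3 of 20-month HSCs overlapped 5.61% (3.96 to 7.89) of shared distal peaks and 8.12% (6.96 to 9.46) of distal 10-week peaks, and 2.2% of the promoter peaks without a 10-week overlap. H2AK119ub1 of 20-month HSCs overlapped 10.7%, 11.3% and 5.52% of these sets. H2AK119ub1 of 10-week HSCs overlapped 0 of the 535 shared distal peaks (upper limit for a count of 0, 0.561%) and 0.218% of distal 10-week peaks. The members' intervals overlapped those of both other distal sets for each mark and age, and for the 20-month marks they lay above those of the promoter peaks. The names of the broad regions carry 1 library number, and whether the H3K27me3 and H2AK119ub1 lists draw on 1 library or on both could not be told from them.

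At least 1 of the 20-month Polycomb marks was present at 105 members and both at 36. The 105 members had a median CpG ratio of 0.569 against 0.451 in the other 615, and 39.0% (30.3 to 48.6) against 21.1% (18.1 to 24.5) were CpG-rich. Their median fold was 3.98, the same as in the others. Polycomb marks were present at 17.5% of members at noncoding starts, 17.8% of intergenic members and 11.1% (8.12 to 15.1) of members in protein-coding introns.

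The highest members with both 20-month marks were in an intron of Magi1, a scaffold protein of cell junctions (chr6:93716097-93716412, 5.31-fold, 23 reads, 708 bp from a 10-week H3K4me3 peak), and 2535 bp upstream of Rgma, a repulsive guidance molecule (chr7:73372738-73372974, 5.31-fold, 164285 bp from one). The next with H3K27me3 was 27471 bp upstream of Robo3, an axon guidance receptor (chr9:37460717-37460983, 5.08-fold). The next with H2AK119ub1 covered a start of the antisense gene Gm30177, 3106 bp from Nrn1, a neuritogenesis factor (chr13:36727243-36727562, 5.08-fold). H3K27me3 of 10-week HSCs overlapped all 4.

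The 4 members with H2AK119ub1 at 10 weeks, named after their values were seen, were assigned to Tfap2a, Osr2, Irx3 and Esp38. Tfap2a, Osr2 and Irx3 are developmental transcription factor genes, and all 4 members also overlapped H3K27me3 at 10 weeks. The member assigned to Esp38 stood apart (chr17:39843515-39843736, 502 bp from the lincRNA gene Gm26917). It had 89 reads over a background of 52.8 reads, the highest of all members, and the lowest fold enrichment, 1.67. It overlapped all 4 Polycomb lists, and its nearest 10-week H3K4me3 peak was 1035689 bp away. Its background was far above the members' median of 3.52 reads. No filter for such places was applied here, and whether its reads map to 1 place was not tested. A background above 5 reads was recovered at 43 members, whose median fold was 3.00, and 3 of them overlapped a 20-month Polycomb mark.

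**Figure D5:**
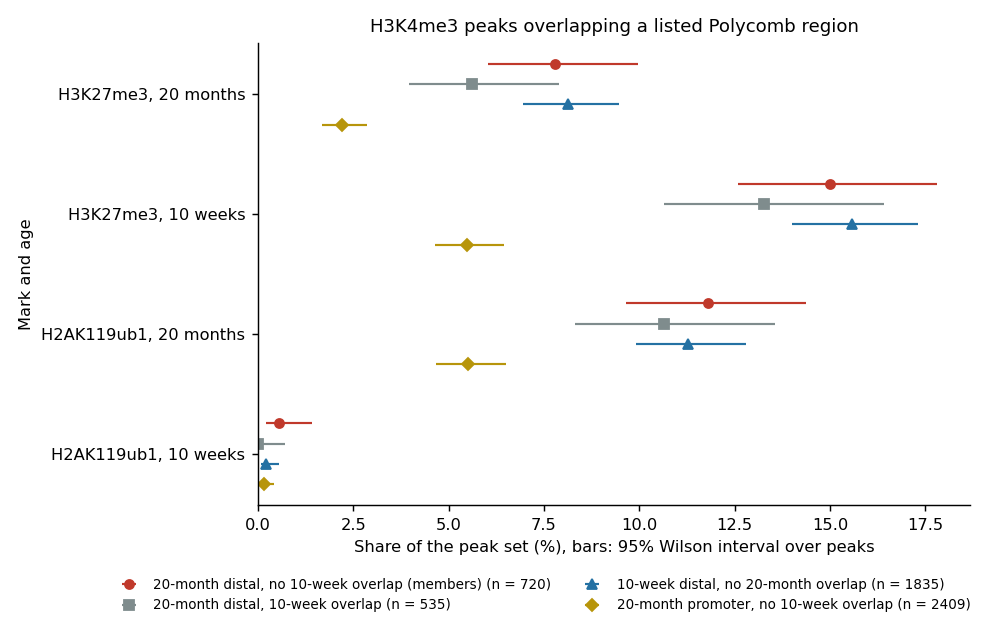
Share of each peak set (x axis, %) that overlaps a listed H3K27me3 or H2AK119ub1 region of each age (y axis), with 95% Wilson intervals as bars. The 3 distal sets have overlapping intervals for every mark and age, and the 20-month promoter peaks lie below them for H3K27me3 at both ages and H2AK119ub1 at 20 months.

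The members were assigned to 629 nearest protein-coding genes. The promoter of the nearest gene carried a listed H3K4me3 peak, within 1 kb of a start, at both ages for 211 members (29.3%, 26.1 to 32.7). It did so at 20 months only for 73 members (10.1%, 8.14 to 12.6), at 10 weeks only for 161 (22.4%, 19.5 to 25.5), and at neither age for 275 (38.2%, 34.7 to 41.8). Among all 20696 protein-coding genes of chromosomes 1 to 19 these shares were 18.4%, 6.02%, 16.9% and 58.6%. Members beyond 10 kb from the start had an unmarked nearest promoter in 44.7% (39.2 to 50.4), and those within 10 kb in 33.4% (29.1 to 38.1). The shares in both other distal sets were close, with 32.9% and 32.6% marked at both ages.

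Genes of HSC identity were often nearest to a member, and more of them to other distal peaks. Of 18 listed HSC transcription factors, 7 (38.9%) were nearest to a member, against 3.04% of all protein-coding genes. These were Erg, Etv6, Lmo2, Mecom, Meis1, Myb and Tal1. Shared distal peaks were nearest to 8 of the 18 genes, and the longer set of distal 10-week peaks to 14. Over all protein-coding genes these sets were nearest to 2.19% and 6.68%. All 7 genes except Myb and Tal1 were also nearest to a shared distal peak, and all 7 to a distal 10-week peak.

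The strongest of these members was in an intron of Myb, a regulator of progenitor proliferation (chr10:21158194-21158577, 5.75-fold, 25 reads). It lay 2328 bp downstream of the start and 1713 bp from a 10-week peak. In Tal1, a master regulator of blood specification, the member was 3017 bp downstream of the start (chr4:115062525-115062806, 4.64-fold, 20 reads) and 1354 bp from a 10-week peak. Erg had 1 member, Mecom had 3, and Etv6, Lmo2 and Meis1 had 2 each. Lmo2, an adaptor in the Tal1 complex, had members 243 and 288 bp from 10-week peaks. Erg, an ETS factor needed for HSC maintenance, had a member 6158 bp downstream of its start, 523 bp from one. Meis1, a cofactor of HOX proteins, had members 9854 and 142011 bp from its start, the first of them at the antisense gene Gm16140.

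The other lists had fewer genes. Among 20 genes known to rise in aged HSCs, Jun, Plscr2 and Selp (15%) were nearest to a member. Of the same 20 genes, 1 was nearest to a shared distal peak, 6 (30%) to a distal 10-week peak and 6 to a 20-month promoter peak without a 10-week overlap. Over all protein-coding genes the members were nearest to 3.04%, and these sets to 2.19%, 6.68% and 10.7%. Selp encodes P-selectin, and its member was 1356 bp downstream of the start (chr1:164116620-164116845, 3.75-fold, 17 reads), 121350 bp from a 10-week peak. For Plscr2, a phospholipid scramblase, the distance was 1113 bp (chr9:92276715-92277090, 4.64-fold, 20 reads) and the gap 26162 bp. Cebpb, a myeloid transcription factor, and Id2, an inhibitor of basic helix-loop-helix factors, were the 2 of 16 myeloid and megakaryocyte genes, of which distal 10-week peaks were nearest to 3. The Cebpb member was 1545 bp from the start (chr2:167690460-167690697, 4.86-fold) and 480 bp from a start of the lincRNA gene A530013C23Rik, and the Id2 member was 1879 bp upstream (chr12:25099019-25099332, 3.76-fold).

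Of 16 lymphoid genes, Bcl11a (chr11:24305220-24305493, 4.12-fold, 224550 bp away) and Ikzf2 (chr1:69688837-69689192, 3.48-fold, 1592 bp upstream) were nearest to a member, and 6 were to a distal 10-week peak. Of 34 STAT, ATF/AP-1 and CNC stress-response genes, Stat3 (chr11:100936744-100936960, 3.98-fold) and Fosl2 (chr5:32137515-32137714, 3.76-fold) were, which is 5.88%. Shared distal peaks were nearest to 6 of these 34 genes and distal 10-week peaks to 8. Of 23 epigenetic regulators, Cbx8, Eed, Kdm6b, Kmt2a and Tet1 (21.7%) were nearest to a member, while 2 were nearest to a shared distal peak and 7 to a distal 10-week peak. Kdm6b, an H3K27 demethylase, had members 3325 and 3740 bp downstream of its start (chr11:69410126-69410350, 4.86-fold, and chr11:69409726-69409935, 4.18-fold), both within 404 bp of a 10-week peak. The lists were chosen with earlier results of these data known, and longer peak sets reach more genes. Over all protein-coding genes, members were nearest to 3.04%, shared distal peaks to 2.19% and distal 10-week peaks to 6.68%.

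A total of 7 genes were nearest to 3 members each, and no gene was nearest to more. Tcf4, Elmo1, Hoxb5 and Mecom were among them. The members of Elmo1, which acts with DOCK proteins on Rac, lay within 1564 bp in its introns and an exon, at 5.31, 4.64 and 4.20-fold, and were 75 to 478 bp from a 10-week peak. Mecom, which encodes EVI1 and is needed for HSC self-renewal, had members at 4.42, 4.20 and 3.14-fold (chr3:30508142-30508391, chr3:30515311-30515556 and chr3:30010631-30010913), 184 to 356 bp from 10-week peaks. The 3 Tcf4 members lay 21182 to 393673 bp from one.

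Members also clustered. With gaps of at most 50 kb, the largest cluster held 7 members over 97457 bp of the HoxB genes (chr11:96255446-96352902), homeobox genes that include the HSC marker Hoxb5. Their fold enrichment ran from 3.32 to 4.64 with 14 to 20 reads, and 3 of them lay 5210 to 6580 bp downstream of Hoxb5, 6 to 494 bp from 10-week peaks. The same stretch held 13 H3K4me3 peaks at 20 months and 15 at 10 weeks, 10 and 18 H3K27me3 regions, and 23 and 7 H2AK119ub1 regions. The sizes of the Polycomb lists are not given here, so these region counts do not measure a change with age at this locus. Only 1 of the 7 members, near Hoxb9, overlapped a Polycomb region. Another 4 members lay in 67509 bp around Scd2, Scd3 and Scd4, genes of stearoyl-CoA desaturases (chr19:44247726-44315234), where the lists held 6 H3K4me3 peaks at 20 months and 2 at 10 weeks and no Polycomb region at either age. The cluster at Creb3l1 and Dgkz (chr2:91965177-92008880) held 3 members, and no 10-week H3K4me3 peak was listed within it. These 3 members were its only 20-month H3K4me3 peaks. Members lack a 10-week overlap by selection, so the H3K4me3 counts of the 2 ages within these clusters partly follow from it.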

How the data were processed

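ChIP-seq was performed for H3K4me3, H3K27me3 and H2AK119ub1. The authors aligned single reads to mm10 with Bowtie2. MACS2 2.2.6 is named in the submitters' processing notes, and the lists have its layout. The deposited lists are pooled per mark and age. In them the authors give each peak's fold enrichment as a linear ratio, the −log10 of its p-value and of its q-value, and the summit offset. Further caller settings were not given in the sources used here. Pooling lets a strong peak of 1 library enter a list.

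The members and gene lists were chosen with earlier results of these data known. Overlap meant 1 shared base. Gaps and classes used GENCODE M21 basic, tRNA and mRNA starts and sequences RefSeq GRCm38.p6. Reads and background were recovered from fold and p-value under the MACS definitions, and 100% of peaks gave whole reads within a tolerance of 0.001. Overlap and recovery code was tested on simulated data. Shares have Wilson and medians order-statistic 95% intervals. No test was run, since no replicate lists were used. A planned overlap with the study's accessibility differences is not reported, since these are its own comparison. The regions named are the 6 highest members by −log10 q-value, the 3 highest of each class and of each 20-month Polycomb list, the 2 highest per gene list, those at the limit, and those of the 5 genes with most members, of which 1 is not reported here. Analyses used Python 3.11.15, numpy 2.4.6, pandas 2.3.3 and scipy 1.17.1.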

Additional observations from a re-analysis of the deposited data

How the results depend on the processing

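Of 88 values recomputed under another setting, 68 stayed within the interval of the reported value, or within 1.5 times a count. The number of members fell to 358 with the −log10 q-value required to reach 4 and to 451 without a 10-week peak within 1 kb. Beyond 2 kb from starts, the noncoding start share was 20.6%, protein-coding exon 7.01%, protein-coding intron 34.3% and intergenic 31.9%, the median distance 15774 bp and the share near a 10-week peak 30.5%. With starts of all transcripts, 38.2% were intronic, 29.5% intergenic, and the median distance was 7717 bp. Without a near 10-week peak that distance was 10555 bp. A noncoding start within 500 bp was found for 11.9%, and placing members by summit left 6.53% over protein-coding exons. Widening peaks by 1 kb gave 11.8% with 20-month H3K27me3, 23.6% with 20-month H2AK119ub1, 19% with 10-week H3K27me3 and 5.14% with 10-week H2AK119ub1. Requiring 50% of the peak covered left 8.06% for 20-month H2AK119ub1 and 11.5% for 10-week H3K27me3. Some of these directions follow from the setting. Widening a peak can only raise an overlap share, and requiring 50% coverage or a start within 500 bp can only lower its share. A limit of 2 kb can only raise the median distance. The cause of the other shifts was not tested. The alternatives planned for accessibility differences were not run.

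No paired analysis was possible because the lists are pooled, and for the same reason no replicate could be left out. With the 10-week list shortened to 6686 peaks the members numbered 917. Adding tRNA genes, chosen after seeing the data, gave 19.6% at noncoding starts, and excluding RefSeq mRNA starts, also chosen then, left 592 members. The median of 18 reads limits what absence from a list can show.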
